A study of Mus musculus with 3 samples.

Results

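The genes described here are 48 enzymes of the urea cycle and of amino acid catabolism in the mouse, chosen by name and found by symbol among 20147 protein-coding genes and 36809 gene identifiers in all. They were measured by strand-specific sequencing of polyadenylated RNA from liver, whole testis and brain of male C57BL/6 mice aged 11 weeks. There was 1 library per tissue, and the labels name no treatment, no genetic change and no number of animals. The organs are compared as a question of how their transcriptomes differ, and the series title sets that question around the testis.

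With a single library per organ the variation among animals is unknown, so only the size of each difference is given, without a p-value. Abundance was the deposited FPKM (fragments normalised to transcript length and sequencing depth), given as the estimate with the authors' interval in brackets. That interval covers estimation error within a library only. The members' values rested on a median of 14479 implied fragments in liver, 49 in testis and 84 in brain, and for members at 1 FPKM or more the interval reached a median of 1.58% to either side of the value in liver, 9.57% in testis and 8.3% in brain. Higher and lower are used for genes whose log2(FPKM + 1) differed by at least 2, that is 4-fold on that scale, with 2 intervals that did not overlap. The scale understates the difference of genes with low values. In whole organs, fewer cells of a type and less RNA per cell cannot be told apart.

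The libraries carried the markers of their labelled organs. Hepatocyte genes were led in liver by Alb at 20975, Trf at 17060 and Apoa1 at 9952 FPKM, neuronal genes in brain by Snap25 at 933, Syp at 316 and Stmn3 at 286 FPKM, and germ cell genes in testis by Tnp1 at 14339, Prm2 at 12924 and Ldhc at 6092 FPKM. Markers of each group were also listed in the other libraries. The 9 germ cell markers summed in brain to 0.0943% of their testis sum, and Alb was at 0.0181% of its liver level in testis and 0.0178% in brain. None of the 10 hepatocyte markers was listed at 0 in testis or brain. Relative to liver they ranged between 0.00253% and 3.89% in testis, where Apoh was highest at 50.6 FPKM. In brain they ranged between 0.00281% and 25.9%, with Ttr highest at 1625 FPKM and Trf at 641 FPKM (3.755%). The other markers lay in brain between 0.00281% (Serpina3k) and 0.0534% (Apoh). The lowest share in each organ rests on Serpina3k, whose liver estimate was marked as failed, with an interval of 0 to 4302 FPKM. The values of Apoh in testis and of Ttr and Trf in brain are not small. How much of the members' low values outside liver shares a source with those of the markers was not tested.

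Amino acids that are not used for protein are stripped of nitrogen by aminotransferases and dehydrogenases, and their carbon skeletons feed glucose, ketone body and energy metabolism. Hepatocytes turn the released ammonia into urea in a cycle that starts in the mitochondrion and ends in the cytosol, and the full set of its enzymes is a hallmark of liver. Brain also moves amino groups actively, because glutamate is a transmitter there, while the testis makes polyamines from ornithine during spermatogenesis.

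In liver 46 of the 48 genes were at 1 FPKM or more, and most were far lower in the other organs. In testis 22 and in brain 27 reached that level. Of all 20147 protein-coding genes, 8837 in liver, 11673 in testis and 11778 in brain did so. The brain count was thus near the share over all genes, and the testis count was below it. Of the members, 32 in liver, 0 in testis and 1 in brain were among the 1000 most abundant protein-coding genes of their library. The median member was at 107 FPKM in liver, 0.881 FPKM in testis and 1.50 FPKM in brain. Together the 48 genes held 1.68% of the protein-coding FPKM of liver, 0.0363% of that of testis and 0.125% of that of brain.

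Against testis, 41 members were higher in liver and 0 were lower, where 5.96% and 20.2% of all protein-coding genes were called in those directions, or 9.18% and 31.1% of those at 1 FPKM or more in either library. Against brain, 35 were higher in liver and 1 was lower, with 4.55% and 13.7% of protein-coding genes called, or 7.21% and 21.6% of those at 1 FPKM or more. The median member difference was 5.14 for liver minus testis and 5.15 for liver minus brain on the log2(FPKM + 1) scale, while the medians over all protein-coding genes were -0.23 and -0.30. Testis and brain differed less, with 2 members higher in testis and 8 lower, a median of -0.12, and a background of 14.2% higher and 10.4% lower, or 20.0% and 14.6% at 1 FPKM or more. Liver was 4-fold above both other organs for 34 members (3.83% of protein-coding genes), testis for 0 (13.2%) and brain for 1 (7.58%). The comparisons share libraries, so their values are given side by side and their overlap is not a separate result.

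**Figure D1:**
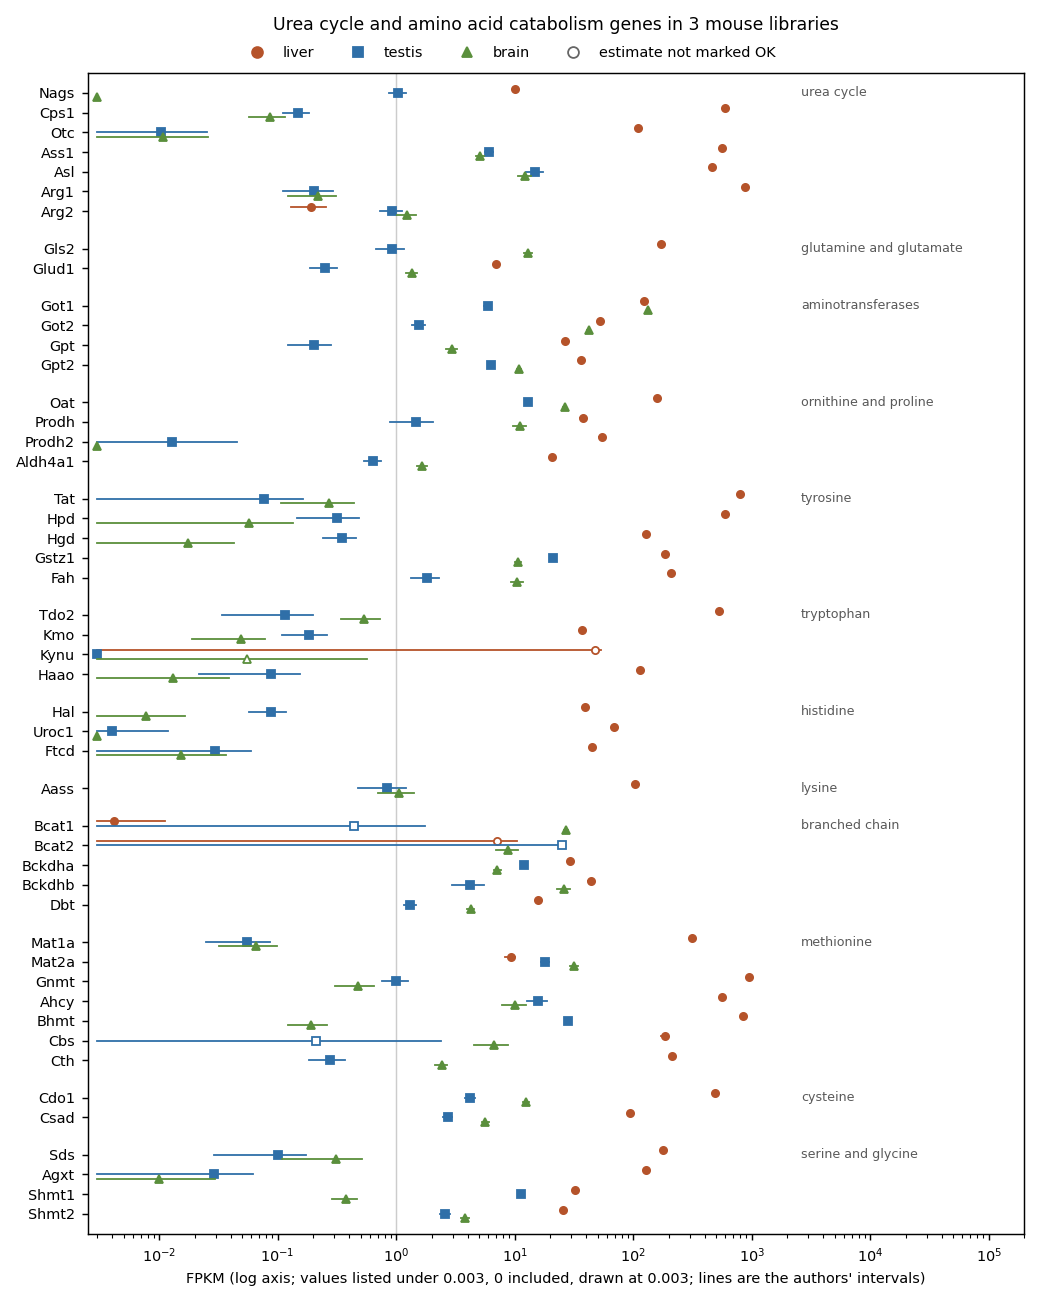
FPKM of the 48 members on a log axis in liver (circles), testis (squares) and brain (triangles), with the authors' intervals as lines and open symbols for estimates not marked OK. Liver is the highest library for 43 members. Arg2, Got1, Bcat1 and Mat2a are highest in brain. Bcat2 is listed highest in testis, but its order turns when the feature overlapping its locus is added.

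A group of 16 members was at 5 FPKM or more in liver and under 0.5 FPKM in both testis and brain: Cps1, Otc, Arg1, Prodh2, Tat, Hpd, Hgd, Kmo, Kynu, Haao, Hal, Uroc1, Ftcd, Mat1a, Sds and Agxt. Of all protein-coding genes 1.47% met these limits. Kynu met the limits by its listed values only. Its liver estimate had failed, with an interval of 0 to 53.7 FPKM. Its brain estimate was marked as low data, with an interval of 0 to 0.563 FPKM. Promoter windows of 250 bases before to 50 bases after the start, from RefSeq on GRCm38.p6, were found for 36 members, of which 11 are in this group. The 11 windows of the group held between 0 and 10 CG pairs with a median of 5, and 10 of them held fewer than 10. The 30 windows of the other 25 members held between 2 and 51, with a median of 13.5. Over all 32851 windows the median was 7. These windows came from 27025 genes, more than the 20147 protein-coding genes used elsewhere, so this background differs from that one. Over the 280 windows of all liver-restricted protein-coding genes the median was 3, so few CG pairs were also seen in liver-restricted genes outside this set. Below are the 250 bases before the start for the pair with the fewest CG pairs in the group, Uroc1 and Otc, and for Got2 and Mat2a, which are also expressed outside liver and were chosen for their many CG pairs after the counts were seen. CG pairs are in capitals, and each is read 5′ to 3′ on the gene's own strand.
Uroc1 (GRCm38.p6, chr6:90333039-90333288, plus strand): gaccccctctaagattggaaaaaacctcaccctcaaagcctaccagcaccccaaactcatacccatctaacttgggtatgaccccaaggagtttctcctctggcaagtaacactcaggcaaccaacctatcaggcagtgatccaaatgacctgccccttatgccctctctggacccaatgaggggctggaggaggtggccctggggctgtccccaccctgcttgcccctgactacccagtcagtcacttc
Otc (GRCm38.p6, chrX:10252055-10252304, plus strand): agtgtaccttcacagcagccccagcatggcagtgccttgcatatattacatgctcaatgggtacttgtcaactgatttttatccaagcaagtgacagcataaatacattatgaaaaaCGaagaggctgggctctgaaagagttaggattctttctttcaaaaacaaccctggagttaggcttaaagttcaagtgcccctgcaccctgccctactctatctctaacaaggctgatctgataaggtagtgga
Got2 (GRCm38.p6, chr8:95888402-95888651, minus strand): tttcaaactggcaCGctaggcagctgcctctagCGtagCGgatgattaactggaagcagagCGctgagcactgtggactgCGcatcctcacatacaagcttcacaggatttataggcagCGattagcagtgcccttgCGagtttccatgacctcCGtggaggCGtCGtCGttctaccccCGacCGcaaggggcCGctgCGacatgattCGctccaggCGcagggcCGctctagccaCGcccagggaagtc
Mat2a (GRCm38.p6, chr6:72439557-72439806, minus strand): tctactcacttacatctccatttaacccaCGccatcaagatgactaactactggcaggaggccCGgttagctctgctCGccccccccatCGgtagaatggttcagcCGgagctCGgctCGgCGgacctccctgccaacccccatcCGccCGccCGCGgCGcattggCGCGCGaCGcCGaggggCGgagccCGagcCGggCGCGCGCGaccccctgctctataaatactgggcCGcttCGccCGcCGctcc

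These stretches held 0 CG pairs for Uroc1, 1 for Otc, 19 for Got2 and 29 for Mat2a. Motifs were searched on both strands of the 300-base windows, and overlaps between motifs were not removed. The C/EBP motif TTGCNNAA was in 3 of the 11 windows of the liver-restricted members (Hal, Hgd and Prodh2), in 1 of the other 30 (Aass), in 10.8% of all windows, and in 24.6% of the windows of all liver-restricted protein-coding genes. The TATA box TATAAA was in 3 of the 11, in 4 of the 30, in 13.6% of all windows and in 25.4% of those of all liver-restricted genes. The HNF4A core CAAAGTCCA and the palindromic HNF1 motif were in 0 member windows, and in 0.475% and 0.00913% of all windows. In the windows of all liver-restricted genes their shares were 6.43% and 0.357%. A match is a run of letters and not a known site, and these letters were looked for in this window only.

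**Figure D2:**
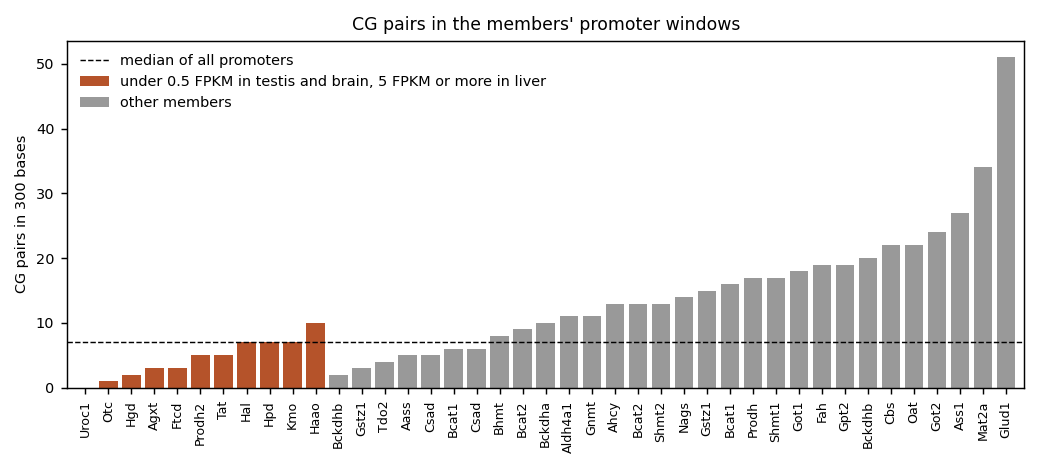
CG pairs in each 300-base promoter window of the members, one bar per window, with liver-restricted members in the darker colour on the left and the median of all promoters as a dashed line at 7. The liver-restricted members stay at 10 or below, and the other members reach 51 in Glud1.

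The urea cycle was complete in liver. Arg1, the cytosolic arginase that releases urea, was at 879.9 FPKM (876 to 884) in liver, 0.201 FPKM (0.111 to 0.291) in testis and 0.218 FPKM (0.123 to 0.312) in brain. Cps1, the mitochondrial carbamoyl phosphate synthetase of the first step, was at 591 FPKM (589.7 to 593) in liver, 0.148 FPKM (0.110 to 0.185) in testis and 0.0860 FPKM (0.0569 to 0.115) in brain. Both therefore stood in testis and brain at 0.0145% to 0.0250% of their liver level. The median hepatocyte marker was at 0.0171% of its liver level in testis and 0.0197% in brain. Whether these values share a source was not tested. In mm9 coordinates Cps1 lies at chr1:67169600-67277833 and Arg1 at chr10:24635014-24647276.

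Otc, the X-linked ornithine transcarbamylase that makes citrulline, was at 110.2 FPKM in liver, 0.0104 FPKM in testis and 0.0107 FPKM in brain, and in the last 2 the interval reached down to 0. Nags makes the N-acetylglutamate that activates Cps1. It was at 10.1 FPKM in liver, with 1.043 FPKM (0.872 to 1.21) in testis, and it was listed at 0 in brain.

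Ass1 and Asl, which build and split argininosuccinate, kept 1 FPKM or more outside liver. Ass1 was at 557 FPKM in liver, 6.04 FPKM (5.59 to 6.50) in testis and 5.12 FPKM (4.69 to 5.54) in brain. Asl was at 464 FPKM in liver, 14.9 FPKM (12.4 to 17.5) in testis and 12.2 FPKM (10.7 to 13.7) in brain. This pair also makes arginine outside the urea cycle. The intervals of testis and brain touched for Asl and stood apart for Ass1, and the difference between testis and brain was called for neither. Liver was called higher for 6 of 7 cycle genes against either organ, with differences of 2.44 (Nags) to 9.52 (Arg1) against testis and 3.47 (Nags) to 9.50 (Arg1) against brain.

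Arg2, the mitochondrial arginase, was the exception. It was at 0.192 FPKM (0.130 to 0.255) in liver, 0.929 FPKM (0.732 to 1.13) in testis and 1.24 FPKM (1.01 to 1.47) in brain, so that liver was lowest with its interval apart from both others. The differences of -0.69 and -0.91 were not called with a pseudocount of 1, but were called with 0.01, at -2.21 and -2.63. As a share of arginase FPKM, Arg1 made up 99.98% in liver, 17.8% in testis and 14.9% in brain.

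Gls2, the liver-type glutaminase that frees ammonia from glutamine, was at 171 FPKM (169 to 173) in liver, 0.921 FPKM (0.671 to 1.17) in testis and 13.0 FPKM (12.0 to 14.0) in brain. Liver was called higher than both and testis lower than brain, by 2.87 on the log2 scale.

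Glud1, the glutamate dehydrogenase of mitochondria, was listed at only 6.91 FPKM (6.68 to 7.15) in liver, 0.251 FPKM in testis and 1.35 FPKM in brain. These values are uncertain, because a second identifier without a match in the reference, ENSMUSG00000091316, covers 99.3% of the same locus (mm9, chr14:35123915-35158330). That feature was listed at 250.5 FPKM (246 to 255) in liver, 6.22 FPKM (5.27 to 7.17) in testis and 77.6 FPKM (74.3 to 80.8) in brain. The summed values were 257, 6.47 and 78.9 FPKM. How the authors' software divided fragments between them cannot be read from the tables. With the sum, chosen after the values were seen, liver minus testis was 5.11 in place of 2.66, liver minus brain was 1.69 in place of 1.75 and not called in either form, and testis minus brain was -3.42 in place of -0.91.

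Aminotransferases pass amino groups to ketoacids. Got1, the cytosolic aspartate aminotransferase, was at 122 FPKM (121 to 123) in liver, 5.95 FPKM (5.55 to 6.36) in testis and 134 FPKM (132 to 136) in brain. Got2, the mitochondrial form, was at 52.4 FPKM (51.7 to 53.2) in liver, 1.55 FPKM (1.37 to 1.74) in testis and 42.0 FPKM (41.0 to 43.0) in brain. Liver and brain were thus close, with differences of -0.13 and 0.31, while testis was below brain by 4.27 for Got1 and 4.07 for Got2. Both enzymes belong to the malate-aspartate shuttle that carries reducing power into mitochondria. Fragments of Got2 may be shared with its pseudogene Got2-ps1, which was listed at 49.0 FPKM in liver, 1.27 FPKM in testis and 31.6 FPKM in brain; their sum gave 4.74, 0.46 and -4.28 for the 3 comparisons.

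Alanine aminotransferase links muscle and liver through the alanine cycle. Its cytosolic form Gpt was at 26.6 FPKM in liver, 0.203 FPKM in testis and 2.94 FPKM in brain, and was called higher in liver than in both. The mitochondrial form Gpt2 was at 36.0 FPKM (35.5 to 36.6) in liver, 6.26 FPKM (5.96 to 6.57) in testis and 10.8 FPKM (10.4 to 11.2) in brain, called against testis only. Gpt made up 42.5% of the pair in liver, 3.13% in testis and 21.3% in brain.

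Of the ornithine and proline genes, 4 of 4 were called higher in liver than in testis and 3 of 4 than in brain, where Prodh at 1.66 was not called. Oat, which converts ornithine to glutamate semialdehyde, was at 159 FPKM in liver, 13.0 FPKM in testis and 26.4 FPKM in brain. Its liver minus brain difference of 2.54 became 1.73 and was not called after scaling to the protein-coding sum. Prodh, the proline dehydrogenase, was at 37.3 FPKM (35.4 to 39.3) in liver, 1.46 FPKM (0.892 to 2.03) in testis and 11.1 FPKM (9.72 to 12.5) in brain, so testis was called lower than brain at -2.30. Prodh2, which acts on hydroxyproline, was at 54.2 FPKM in liver and 0.0127 FPKM in testis, and was listed at 0 in brain. Aldh4a1, the next enzyme of both routes, was at 20.4 FPKM in liver, 0.639 FPKM in testis and 1.65 FPKM in brain.

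**Figure D3:**
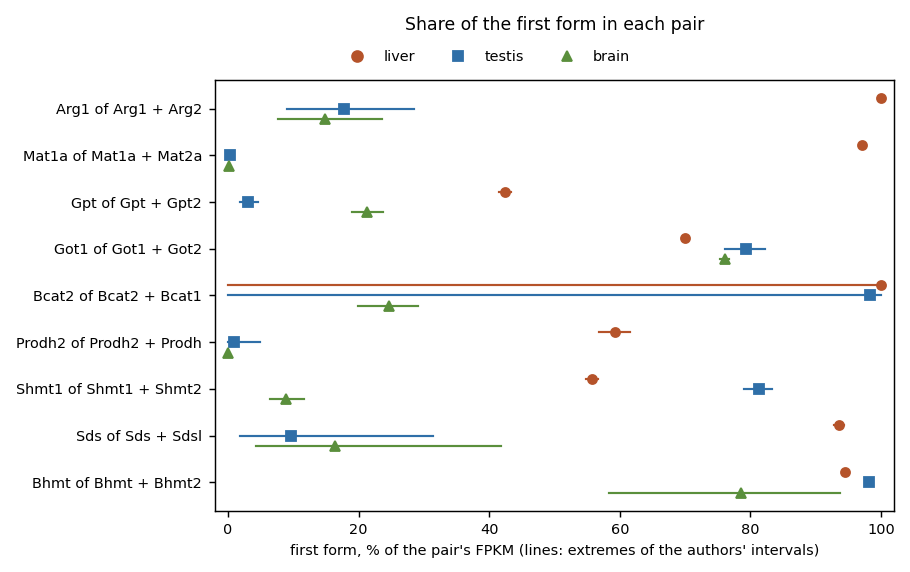
Share of the first form in the FPKM of each pair of related enzymes, in percent, for liver (circles), testis (squares) and brain (triangles). Lines give the extremes that the authors' intervals allow. Arg1, Mat1a and Sds exceed 90% of their pair in liver, and their estimates stay at 17.8% or below in testis and brain. The upper extremes in testis and brain reach 31.3% and 41.8% for Sds, and 28.4% and 23.6% for Arg1. Bhmt also exceeds 90% in liver, at 94.4%, but is at 98.2% in testis and 78.6% in brain. Bcat2 is at 99.9% in liver, 98.3% in testis and 24.6% in brain, with a failed liver and a low-data testis estimate.

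All 5 tyrosine genes were called higher in liver against both organs, with differences of 3.08 to 9.52 against testis and 3.99 to 9.28 against brain. Tat, the hormone-inducible aminotransferase that opens the route, was at 792 FPKM (786 to 798) in liver, 0.0770 FPKM (0 to 0.165) in testis and 0.271 FPKM (0.106 to 0.436) in brain. Hpd, the second enzyme, was at 599.5 FPKM in liver, 0.315 FPKM in testis and 0.0567 FPKM in brain. Higher values outside liver were seen for 2 late enzymes. Gstz1, the maleylacetoacetate isomerase, was at 186 FPKM in liver, 21.1 FPKM (20.2 to 22.0) in testis and 10.7 FPKM (10.1 to 11.4) in brain. Fah, the last step and the gene of hereditary tyrosinaemia, was at 208 FPKM in liver, 1.82 FPKM (1.34 to 2.30) in testis and 10.5 FPKM (9.35 to 11.7) in brain. Testis was called lower than brain for Fah at -2.03, but not after median-ratio scaling, at -1.82. Between these ends, Hgd was at 129 FPKM in liver, 0.3499 FPKM in testis and 0.0176 FPKM in brain.

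Tryptophan is degraded along the kynurenine route. Tdo2, its first enzyme, was at 533 FPKM (528 to 537) in liver, 0.116 FPKM (0.0341 to 0.198) in testis and 0.539 FPKM (0.344 to 0.735) in brain. Kmo was at 36.7 FPKM in liver, 0.184 FPKM in testis and 0.0486 FPKM in brain, and Haao at 115 FPKM, 0.0880 FPKM and 0.0130 FPKM. Kynu was listed at 48.03 FPKM in liver, but as a failed estimate with an interval of 0 to 53.7, so its difference could not be called. Histidine degradation was low outside liver. Hal, Uroc1 and Ftcd, its enzymes from ammonia release to the formimino transfer, stood between 39.1 and 68.9 FPKM in liver and at no more than 0.0873 FPKM in testis and 0.0152 FPKM in brain. Aass, which starts lysine degradation, was at 104 FPKM in liver, 0.842 FPKM in testis and 1.05 FPKM in brain.

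Among branched chain amino acid genes, 2 of 5 members were called higher in liver than in testis, 0 were called higher than in brain and 1 was lower. Leucine, isoleucine and valine are known to be transaminated mostly outside the liver. Bcat1, the cytosolic aminotransferase, was at 0.00418 FPKM (0 to 0.0112) in liver and 27.0 FPKM (25.8 to 28.2) in brain. Testis was listed at 0.441 FPKM with an interval of 0 to 1.73 and an estimate marked as low data. Bcat1 was the 1 member called highest in brain, at -4.80 for liver minus brain and -4.28 for testis minus brain. It is not counted when all estimates must be marked OK. Bcat2, the mitochondrial form, was listed at 7.04 FPKM in liver, 25.3 FPKM in testis and 8.80 FPKM in brain, but the liver estimate had failed and the testis one was marked as low data, with an upper bound of 24.4 below the estimate itself. The feature ENSMUSG00000085214, without a match in the reference, overlaps its locus and was listed at 53.9 FPKM in liver as a failed estimate. Summing both, a step chosen after the values were seen, turned the direction, with liver minus testis at 1.24 in place of -1.71 and liver minus brain at 2.66 in place of -0.29, so no order of the organs can be given for Bcat2.

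The ketoacid dehydrogenase that follows is built of several subunits. Its E1 alpha gene Bckdha was at 29.1 FPKM in liver, 11.9 FPKM in testis and 7.13 FPKM in brain, with no call. The E1 beta gene Bckdhb was at 44.0 FPKM (41.2 to 46.8) in liver, 4.22 FPKM (2.94 to 5.50) in testis and 26.1 FPKM (22.8 to 29.3) in brain, and the E2 gene Dbt at 15.8 FPKM, 1.31 FPKM and 4.24 FPKM. Bckdha was the highest of the 3 subunits in testis and Bckdhb in liver and brain, per length.

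Gnmt, which uses up methyl groups by methylating glycine, was at 945 FPKM (940 to 951) in liver, 1.002 FPKM (0.754 to 1.25) in testis and 0.477 FPKM (0.303 to 0.651) in brain, and ranked 70 among liver protein-coding genes. Ahcy, which removes the product inhibitor adenosylhomocysteine, was at 563 FPKM in liver, 15.7 FPKM (12.8 to 18.6) in testis and 10.1 FPKM (7.77 to 12.5) in brain. It was called higher in liver against both, at 5.08 and 5.67.

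Methionine adenosyltransferase has 2 gene forms, of which Mat1a had its highest and Mat2a its lowest value in liver. Mat1a, the adult liver form, was at 311 FPKM (309 to 313) in liver, 0.0552 FPKM (0.0246 to 0.0859) in testis and 0.0657 FPKM (0.0318 to 0.0996) in brain. Mat2a, the form of other tissues, was at 9.24 FPKM (8.34 to 10.1) in liver, 18.1 FPKM (16.6 to 19.5) in testis and 31.7 FPKM (29.4 to 34.0) in brain. Liver was lowest for Mat2a with no overlap of intervals, at -0.90 against testis and -1.68 against brain, neither of which was called. The difference to brain became -2.46 and was called after scaling to the protein-coding sum. Mat1a made up 97.1% of the pair in liver, 0.305% in testis and 0.207% in brain.

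Bhmt, which remethylates homocysteine with betaine, was the member most clearly present in testis. It was at 852 FPKM (849 to 855) in liver, 28.3 FPKM (27.4 to 29.1) in testis and 0.192 FPKM (0.122 to 0.262) in brain. The testis value rested on 4581 implied fragments and was 3.32% of the liver level. Of the 10 hepatocyte markers, Apoh was at 3.89% of its liver level in testis. The other 9 lay between 0.00253% (Serpina3k, whose liver estimate had failed) and 0.506% (Hp). Testis minus brain was 4.62 for Bhmt, the largest such difference among the members. Its paralog Bhmt2 was at 50.4 FPKM in liver, 0.519 FPKM in testis and 0.0523 FPKM in brain. Cbs and Cth, which carry homocysteine sulphur to cysteine, had their lowest values in testis. Cbs was at 185 FPKM in liver, 0.209 FPKM (0 to 2.39, marked as low data) in testis and 6.64 FPKM (4.57 to 8.71) in brain. Cth was at 214 FPKM in liver, 0.278 FPKM (0.184 to 0.372) in testis and 2.41 FPKM (2.13 to 2.69) in brain. Testis was called lower than brain for Cbs at -2.66; for Cth it was -1.42, which was not called.

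Cysteine is oxidised by Cdo1 and decarboxylated toward taurine by Csad. Cdo1 was at 486 FPKM in liver, 4.196 FPKM (3.79 to 4.60) in testis and 12.4 FPKM (11.7 to 13.1) in brain. Csad was at 94.4 FPKM in liver, 2.72 FPKM (2.46 to 2.98) in testis and 5.63 FPKM (5.25 to 6.01) in brain. Both were called higher in liver against either organ.

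In the serine and glycine group, Sds, the serine dehydratase that feeds gluconeogenesis, was at 179.5 FPKM in liver, 0.101 FPKM in testis and 0.310 FPKM in brain. Agxt, which detoxifies glyoxylate in peroxisomes, was at 129 FPKM in liver, 0.0288 FPKM in testis and 0.00991 FPKM in brain. Shmt1, the cytosolic form of the folate-linked serine hydroxymethyltransferase, was at 32.0 FPKM (31.5 to 32.6) in liver, 11.2 FPKM (10.7 to 11.7) in testis and 0.375 FPKM (0.287 to 0.463) in brain. Testis minus brain was 3.15 and called, while liver minus testis was 1.44 and not called as deposited, but 2.50 and called after median-ratio scaling. Shmt2, the mitochondrial form, was at 25.4 FPKM in liver, 2.59 FPKM in testis and 3.82 FPKM in brain. Its liver minus brain difference of 2.46 became 1.73 after scaling to the protein-coding sum. Shmt1 was 55.7% of the pair in liver, 81.2% in testis and 8.94% in brain.

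Between testis and brain 8 members were called lower in testis and 2 higher. Of all protein-coding genes 10.4% were lower and 14.2% higher, or 14.6% and 20.0% of those at 1 FPKM or more in either library. The lower calls were thus near the share over all genes, and the higher calls below it. Lower in testis were Bcat1, Got1, Got2, Gls2, Cbs, Bckdhb, Prodh and Fah, and higher were Bhmt and Shmt1. The remaining 38 were not called, and for 16 of the members both organs were under 0.5 FPKM, the same genes as the liver-restricted group.

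**Figure D4:**
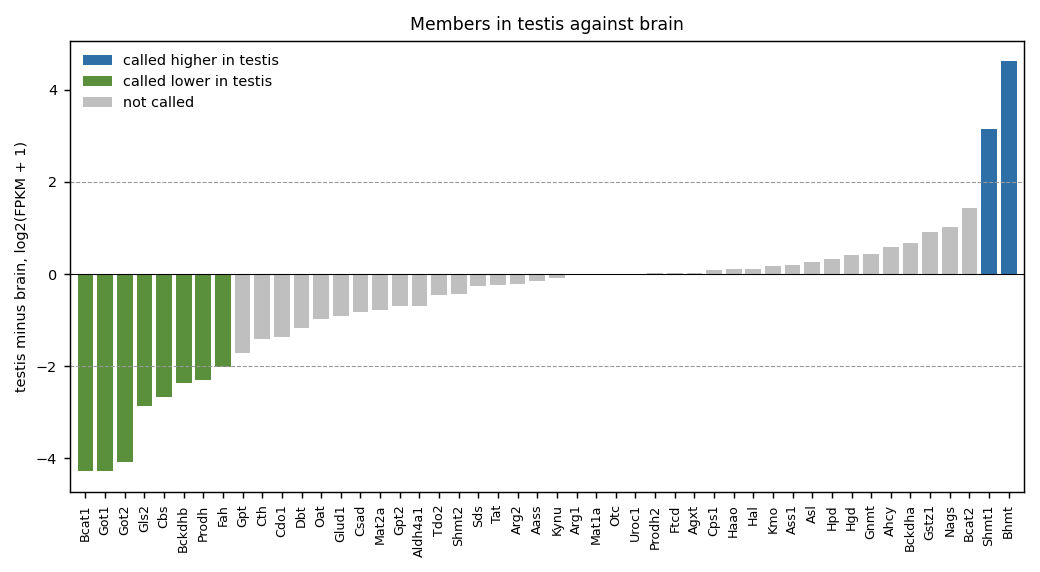
Difference testis minus brain on the log2(FPKM + 1) scale for the 48 members, sorted, with dashed lines at the 4-fold limit. The 8 genes called lower in testis run from -4.28 (Bcat1) to -2.03 (Fah), and the 2 called higher are Shmt1 (3.15) and Bhmt (4.62).

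The other enzymes of the same routes were read from lists of 82 genes, of which 81 were found. Of these 41 were called higher in liver than in testis and 8 lower, and 27 were called higher in liver than in brain and 13 lower. The shares of all protein-coding genes were 5.96% higher and 20.2% lower against testis, and 4.55% higher and 13.7% lower against brain, so the lower calls were below or near the share over all genes. Median differences were 2.04 and 0.94, smaller than those of the members. Qdpr, which recycles the cofactor tetrahydrobiopterin, was at 199 FPKM in liver, 10.2 FPKM in testis and 126 FPKM in brain. The lysine enzyme Aldh7a1 was at 194 FPKM in liver, 11.8 FPKM in testis and 30.8 FPKM in brain. In the remaining lists the most abundant enzymes in liver included Glul, the glutamine synthetase, which was not called. Glul was at 153 FPKM in liver, 299.9 FPKM in testis and 441 FPKM in brain. Called higher in liver than in both other organs were Hao1 at 105.5 FPKM, Gcdh at 103 FPKM, Dmgdh at 113 FPKM, Amdhd1 at 56.8 FPKM, Agmat at 52.2 FPKM, Qprt at 46.6 FPKM, Afmid at 35.1 FPKM, Nit2 at 31.7 FPKM, Suox at 27.1 FPKM and Aspg at 17.5 FPKM in liver. Called against testis only were Mcee at 105 FPKM, Grhpr at 83.5 FPKM and Ethe1 at 34.5 FPKM in liver, and Dld, a subunit shared by ketoacid dehydrogenases, was called in neither comparison, at 94.1 FPKM in liver, 67.5 FPKM in testis and 91.6 FPKM in brain. In the branched chain list 10 of 16 were higher in liver than in testis and 2 than in brain (Aldh6a1 and Mut), and 0 were lower.

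Phgdh, the first enzyme of serine synthesis, was at 0.131 FPKM (0.00918 to 0.252) in liver, 8.86 FPKM (7.32 to 10.4) in testis and 31.4 FPKM (28.3 to 34.5) in brain. Psat1, the next step, was at 0.472 FPKM (0.255 to 0.689) in liver, 8.95 FPKM (7.83 to 10.1) in testis and 50.4 FPKM (47.4 to 53.3) in brain. Both were called lower in liver against either organ. Asns, which makes asparagine, was at 5.67 FPKM in liver, 57.1 FPKM in testis and 44.7 FPKM in brain, also called lower in liver against both. Called lower in liver against both were further Gatm of creatine synthesis, the antizyme inhibitor Azin2, and Asrgl1, an asparaginase. Gatm was at 1.74 FPKM in liver, 26.9 FPKM in testis and 32.3 FPKM in brain. Azin2 was at 0.0301 FPKM in liver, 127 FPKM in testis and 9.55 FPKM in brain, and Asrgl1 at 1.66, 343 and 41.2 FPKM. Against brain only, the genes called lower in liver included Aldh18a1, Mat2b, Ado, Th and Tph2, and against testis only liver was lower for Hdc and Ahcyl2.

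Transporters and regulators of the pathway were listed apart. Of 12 transporters 7 were called higher in liver than in testis and 2 lower, and 5 were higher than in brain and 3 lower. Of all protein-coding genes 5.96% were called higher and 20.2% lower against testis, and 4.55% and 13.7% against brain. At 1 FPKM or more in either library the lower shares were 31.1% and 21.6%. The lower calls were thus below or near the share over all genes. The same shares apply to the regulators. The amino acid carriers Slc38a4 and Slc38a3 led in liver at 164 and 120 FPKM. The mitochondrial carriers Slc25a12 and Slc25a18 were at 1.51 FPKM and listed at 0 in liver, against 18.1 and 31.6 FPKM in brain, and the exchanger subunit Slc7a5 was at 0.117 FPKM in liver, 16.2 FPKM in testis and 8.50 FPKM in brain. Slc25a15, the ornithine carrier of the urea cycle, was named after its values were seen and was at 88.4 FPKM in liver, 0.2005 FPKM in testis and 3.05 FPKM in brain. Of 12 regulators 7 and 5 were higher in liver and 0 lower, led by the liver factors Hnf4a at 70.1 FPKM and Cebpa at 40.7 FPKM. Hnf4a was at 0.0219 FPKM in testis and listed at 0 in brain, and Cebpa was at 0.872 and 1.51 FPKM.

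**Figure D5:**
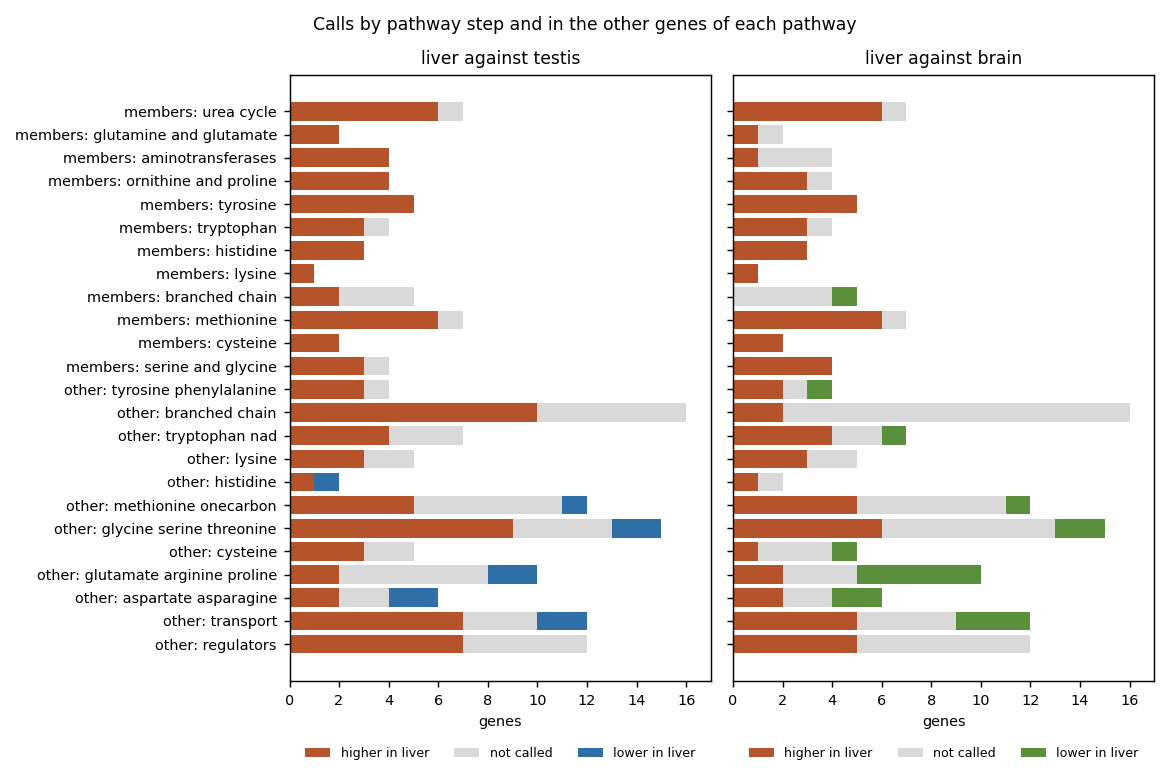
Number of genes called higher in liver, not called and lower in liver, against testis (left panel) and brain (right panel), for the 12 steps of the members and the 12 lists of other pathway genes. Among members, lower calls occur only for Bcat1 against brain, while the other lists hold lower calls in both panels.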

How the data were processed

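RNA of 3 libraries, 1 each of liver, testis and brain, was sequenced as single-end reads of 76 cycles in 3 lanes each, per the labels' protocols. Among tools, Cufflinks 2.0.0, TopHat 1.4.0 and Bowtie 0.12.5 are recorded with the build mm9, per the submitters' processing notes. Annotation and filters: not given in the sources used here. Per the file headers, the authors deposited FPKM per gene, its bounds and a status of each estimate. The level of the bounds is not named and was taken as 95%. The deposited tables hold no counts, so implied fragments were computed as the square of 2 times FPKM over the upper half-width. They summed to 86.4 M in liver, 40.9 M in testis and 31.8 M in brain.

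Symbols and classes came by identifier from GENCODE M21. Coordinates are those of the tables with 1 added to the start, after which 37 of 37 mitochondrial genes matched the reference. The FPKM of 12 identifiers at more than 1 locus were summed. Failed and low-data estimates were kept at their listed values. Of the members, 2 were marked as failed in liver, and 0 in testis and brain. All 48 members passed 1 FPKM in at least 1 library. Python 3.11.15 with pandas 2.3.3 and numpy 2.4.6 was used. The call rule was tried on data simulated from abundant liver genes with large changes. That trial does not cover the members' low values in testis and brain. The members, the lists and the 10 enzyme pairs were chosen with earlier results of these data known. Of 165 list entries, 163 were found by symbol. All members could be named; from the other pathway lists, the 2 highest in liver and those called in another direction than higher in liver, and from marker lists the 3 highest. Some genes of these lists and 1 of the enzyme pairs are counted but not reported here by name.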

Additional observations from a re-analysis of the deposited data

How the results depend on the processing

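The call counts were recomputed with other pseudocounts, scalings, fold minimums, status and low-value filters and without the intervals. Higher calls in liver ran from 36 to 43 of 48 against testis and from 32 to 40 against brain. Members lower in liver than in testis numbered 0, and 1 with a pseudocount of 0.01. Those lower in liver than in brain numbered 1, and 2 with a pseudocount of 0.1 or 0.01, with scaling to the protein-coding sum or with a fold minimum of 2, and 0 with estimates marked OK only, where the member highest in brain also became 0. Members higher in testis than in brain were 6 with a pseudocount of 0.01. Members lower in testis than in brain ran from 3 to 12. The 3 came with a fold minimum of 8, and the 12 with a pseudocount of 0.01 or a fold minimum of 2. They were 9 with the Glud1 locus summed, an alternative chosen after seeing the data. Members at 0.1 and 5 FPKM in testis numbered 38 and 12. Without the 100 most abundant genes the members held 3.81% of protein-coding FPKM in liver, 0.0521% in testis and 0.193% in brain, and with estimates marked OK only 1.72% in liver. Of 720 differences of single members recomputed with other pseudocounts and scalings, 3 lost their call and 35 gained one. Among differences called as deposited, 0 changed direction. Changes of direction among uncalled differences were not counted. Median-ratio scaling moved the median over protein-coding genes at 1 FPKM or more by 0.78 for liver minus testis and 0.93 for liver minus brain; scaling to the protein-coding sum moved it by -0.61 for liver minus brain and -0.60 for testis minus brain; and leaving out the 100 most abundant genes moved it by 0.81, 0.19 and -0.64 in the 3 comparisons. Under these scalings the members' median lay between 4.94 and 6.08 for liver minus testis, between 4.36 and 6.02 for liver minus brain and between -0.41 and -0.07 for testis minus brain. The cause of these changes was not tested. No paired analysis was possible because each tissue has 1 library, and no library could be left out.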

Other observations

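A relative of the aspartate aminotransferases outside the 48 genes, Got1l1, was looked up after the values of Got1 were seen. It was at 0.00535 FPKM in liver, 21.0 FPKM (20.03 to 21.97) in testis and 0.286 FPKM in brain. In testis it thus exceeded Got1, at 5.95 FPKM, and Got2, at 1.55 FPKM.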
